A study of Mus musculus with 8 samples.

Results

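The comparison described here set shRNA2, a hairpin against the coding sequence of *Eftud2*, against nt-shRNA, a hairpin without a target. It rests on 5 of the 8 libraries of the experiment, 3 with shRNA2 and 2 with nt-shRNA, and all 17445 genes that passed a filter on low counts, of 55385 in the table, were tested. The cells were R1 mESCs, a mouse embryonic stem cell line labelled wild type, kept in N2B27 medium with 2i and LIF on poly-L-ornithine and laminin. Every culture, controls included, was infected with lentivirus for 2 days and then selected with puromycin for 3 days. The remaining 3 libraries carried shRNA1, a hairpin against the 3′ UTR of the same gene, and served for the estimate of spread and for a direct contrast between the hairpins. Poly(A)-selected RNA was sequenced, and bulk RNA cannot tell fewer cells of a type from less RNA per cell.

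*Eftud2* encodes a GTPase of the U5 small nuclear ribonucleoprotein, a building block of the spliceosome that helps to unwind the U4/U6 pair and to take the spliceosome apart after use. Mouse embryonic stem cells in 2i and LIF hold a naive state that depends on transcription factors such as *Nanog*, *Klf4* and *Esrrb*, and a small share of such cells passes at times through a state that resembles the 2-cell embryo. The gene groups below follow from that background and from the metabolism and surface of these cells. Genes of glycolysis, sterol synthesis and the p53 response were left out of the strongest genes and of the rule for named genes, but a list counts such a gene where it is a member.

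In the counts, the targeted transcript was lower in every shRNA2 library, but by a small margin. The study reported a larger knockdown with shRNA2 by qPCR, scaled to mitochondrial rRNA, and less EFTUD2 protein by western blot. The reason for the difference between these measures was not tested. *Eftud2* stood at 262 and 256 CPM (counts divided by the TMM-scaled library size, in units of 1000000) with nt-shRNA and at 198, 202 and 235 CPM with shRNA2. The groups did not overlap, which was so for 36% of all genes tested in the lower direction and 35.4% in the higher, so that a gap between the groups is common in this comparison. The log2 fold change was -0.29 ± 0.07 (SE), a 1.22-fold lower level, with an adjusted p of 0.0012 in edgeR's quasi-likelihood test. The direct contrast of shRNA2 with shRNA1 gave a log2 difference of -0.11 for the *Eftud2* transcript (adjusted p = 0.16).

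Total counts were between 21273977 and 22199116 in the shRNA2 libraries and were 28548237 and 29871048 in the nt-shRNA libraries. The markers of embryonic stem cells were all present. *Nanog* stood at 892 and 932 CPM with nt-shRNA and at 1565, 1487 and 1593 CPM with shRNA2, and *Pou5f1* at 788 and 760 against 614, 675 and 614 CPM. *Sox2* did not pass the test (log2 fold change -0.02, adjusted p = 0.75). Of 18 fibroblast markers, 10 passed the filter, with a summed level of 130 to 134 CPM in the controls and 119 to 130 CPM with shRNA2, most of it *Vim*, while *Col3a1*, *Dcn*, *Lum* and *Postn* were among the 8 that did not pass. Germ-layer and extraembryonic markers summed to 467 and 487 CPM with nt-shRNA and to between 323 and 339 CPM with shRNA2.

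The control libraries stood apart from each other in RNAs that carry no poly(A) tail. The 15 snRNA genes tested summed to 118 CPM in nt-shRNA replicate 1, 17.5 CPM in nt-shRNA replicate 2 and between 5.78 and 6.63 CPM in the shRNA2 libraries. The 5 genes annotated as rRNA summed to 8696, 2704 and between 1341 and 1625 CPM in the same order. Results on small RNAs and histones are therefore given with and without nt-shRNA replicate 1, and their other values come last.

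The test called 4748 genes higher with shRNA2, 27.2% of all genes tested, and 5010 lower, 28.7%, so that 55.9% passed in either direction. Scaling by library size alone gave 5850 higher and 4077 lower. Changes over 2-fold were called for 1320 genes in the higher direction (7.57%) and 1184 in the lower (6.79%). Above 4-fold the split was 339 higher and 163 lower, and above 8-fold it was 92 and 34. The median log2 fold change over all genes was 0.00, with quartiles of -0.37 and 0.37.

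**Figure D1:**
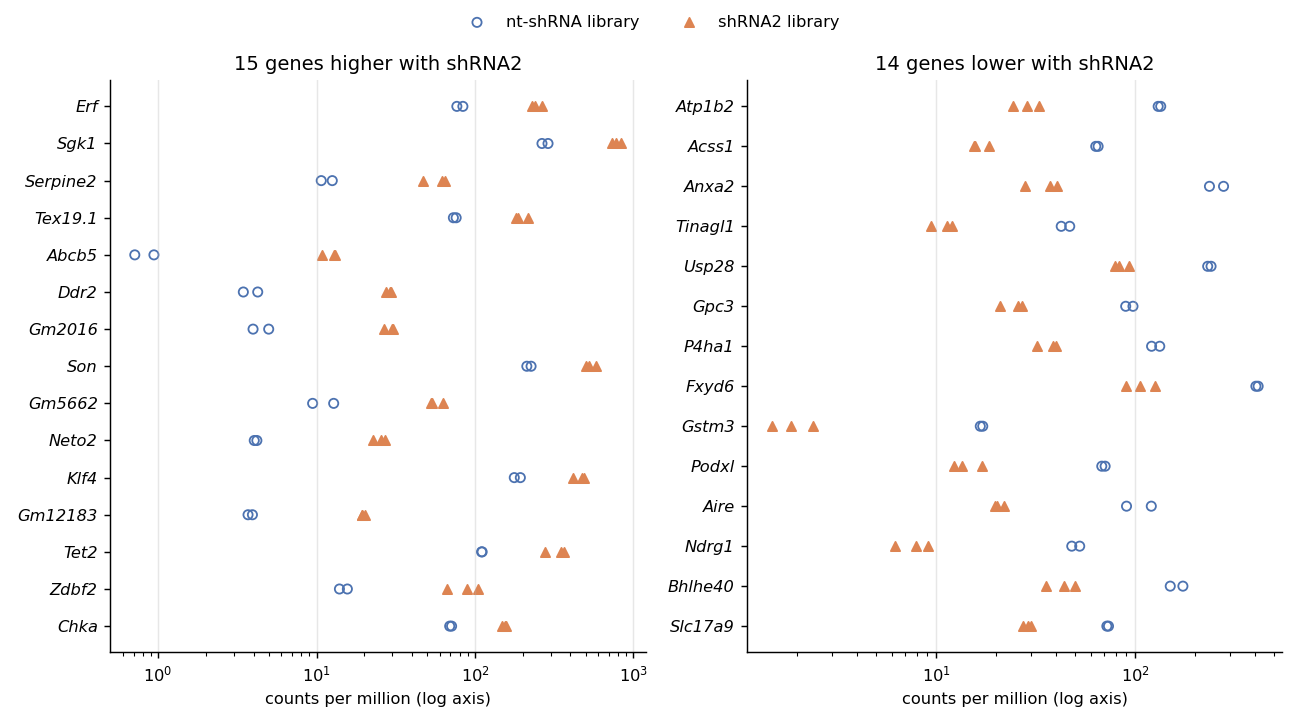
Level of 15 genes higher and 14 of the 15 lower with the smallest p-values among those changed over 2-fold, in CPM on a log axis, with 1 open circle for each nt-shRNA library and 1 triangle for each shRNA2 library. In each gene shown all shRNA2 libraries lie on the same side of both nt-shRNA libraries.

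The 15 genes raised with the smallest p-values had varied functions. *Erf*, an ETS-domain repressor under the control of ERK, stood at 83.8 and 76.8 CPM with nt-shRNA and at 238, 264 and 228 CPM with shRNA2, 3.03-fold higher (adjusted p = 3.7e-11). The kinase *Sgk1* stood at 289 and 265 against 837, 729 and 772 CPM, 2.82-fold higher. Both genes had a gap between the groups far wider than the spread within them. *Klf4*, a factor of the naive state, stood at 193 and 177 against 473, 490 and 418 CPM. *Tet2*, which oxidises methylcytosine, stood at 110 and 111 against 346, 362 and 276 CPM. *Son*, a large splicing cofactor of nuclear speckles, was 2.43-fold higher, at 212 and 226 against 523, 576.5 and 499 CPM. In all of these the groups did not overlap, and shRNA2 replicate 3 was the lowest of its group in *Erf*, *Klf4*, *Tet2* and *Son*.

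Several of this leading set had low levels in the controls. *Abcb5*, a transporter of the ABC family, stood at 0.71 and 0.94 CPM with nt-shRNA and at 13.1, 12.9 and 10.8 CPM with shRNA2, 14.7-fold higher (log2 fold change 3.88 ± 0.22, adjusted p = 9.2e-11). *Ddr2*, a receptor kinase for collagen, rose from 3.45 and 4.25 to 29.3, 29.0 and 27.4 CPM. *Serpine2*, a secreted protease inhibitor, rose from 12.6 and 10.7 to 61.6, 64.9 and 47.0 CPM. The groups were wide apart in all 3. *Zdbf2*, an imprinted gene, stood at 13.9 and 15.6 against 89.3, 105 and 66.3 CPM, and *Neto2*, an auxiliary subunit of kainate receptors, at 4.198 and 4.04 against 22.7, 27.0 and 25.4 CPM. From higher control levels, *Tex19.1*, a germline protein that restrains retrotransposons, rose 2.61-fold, and *Chka*, the choline kinase that starts phosphatidylcholine synthesis, 2.18-fold. *Gm2016*, *Gm5662* and the processed pseudogene *Gm12183* completed the 15, with folds of 6.52, 5.06 and 5.14.

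The 15 lowered genes with the smallest p-values were varied in function too. *Atp1b2*, a β subunit of the sodium-potassium ATPase, stood at 131 and 135 CPM with nt-shRNA and at 28.6, 24.4 and 32.7 CPM with shRNA2, 4.64-fold lower (log2 fold change -2.21 ± 0.09, adjusted p = 8.5e-12). *Acss1*, which makes acetyl-CoA from acetate in mitochondria, stood at 63.4 and 65.2 against 15.7, 15.4 and 18.4 CPM. *Anxa2*, a membrane-binding annexin, stood at 237 and 278 against 40.6, 28.1 and 37.1 CPM, 7.30-fold lower. The groups did not overlap in any of them. *Fxyd6*, a modulator of the same ATPase, stood at 405 and 416 against 106, 90.3 and 126 CPM. *Gstm3*, a glutathione transferase, stood at 17.1 and 16.7 against 1.86, 1.49 and 2.39 CPM, 8.82-fold lower, the largest fold of these 15.

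The other lowered genes of the set spread over several functions. *Tinagl1*, *Gpc3* and *Podxl*, which encode a matrix protein, a glypican and a sialomucin, were 4.10-, 3.81- and 4.87-fold lower. *Usp28*, a deubiquitinase, was 2.78-fold lower. *P4ha1*, *Ndrg1* and *Bhlhe40*, known targets of the hypoxia-inducible factor HIF-1, were 3.44-, 6.52- and 3.76-fold lower. *Aire*, a transcriptional regulator best known from the thymus, stood at 90.5 and 121 against 20.3, 19.8 and 21.9 CPM. *Slc17a9*, a vesicular nucleotide transporter, was 2.53-fold lower, the smallest fold of the 15.

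In the direct contrast between the hairpins, 16.9% of all genes were higher and 18.7% lower with shRNA2 than with shRNA1. Of the 15 leading higher genes, 13 were also higher with shRNA2 than with shRNA1, the exceptions being *Gm2016* (log2 difference 0.26, adjusted p = 0.075) and *Gm5662* (0.10, adjusted p = 0.47). All 15 leading lower genes were lower with shRNA2 than with shRNA1. These genes were chosen on the shRNA2 libraries that enter this contrast too.

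Ranked by fold instead of p-value, the higher genes were scarce transcripts and the lower ones included small RNAs. *Neurod1*, a neuronal and endocrine transcription factor, gave 7 and 2 counts with nt-shRNA and 153, 278 and 144 counts with shRNA2, with a log2 fold change of 5.71 ± 0.41 (adjusted p = 1.5e-09). *Trim43a* stood at 0.37 and 0.56 CPM against 10.9, 9.06 and 6.24 CPM. *Tdpoz4* gave 1 and 2 counts against 73, 84 and 37, a ratio of 54.7 with a 95% exact interval of 18.4 to 268 that covers counting error only. Control levels so low leave the size of these folds loosely fixed, though the groups did not overlap. *Anks1b* and *Cpb2* also belonged to the 10 highest folds, with 9 and 5 control counts in all, and the other 5 were *Gm49089*, *Gm33466*, *Gm9176*, *Gm2128* and *Gm14861*.

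The lowest folds among genes read from poly(A) RNA were those of *Lefty1*, *Lefty2* and *Ndufa4l2*. *Lefty2*, an inhibitor of Nodal signalling, stood at 44.5 and 78.3 CPM with nt-shRNA and at 2.56, 3.34 and 7.85 CPM with shRNA2 (log2 fold change -3.75 ± 0.28, adjusted p = 2.8e-09). *Lefty1*, its neighbour in function, stood at 8.55 and 19.7 against 0.93, 0.81 and 1.24 CPM. The controls differed from each other widely in both, and the log2 fold change without nt-shRNA replicate 1 was -4.10 for *Lefty2* and -4.31 for *Lefty1*, and without nt-shRNA replicate 2 it was -3.28 and -3.10. *Nodal* itself was higher, at 42.2 and 50.6 against 92.8, 108 and 82.9 CPM. *Ndufa4l2*, a HIF-1-induced relative of a cytochrome oxidase subunit, stood at 40.9 and 49.4 against 3.77, 3.16 and 4.27 CPM, 12.1-fold lower.

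**Figure D2:**
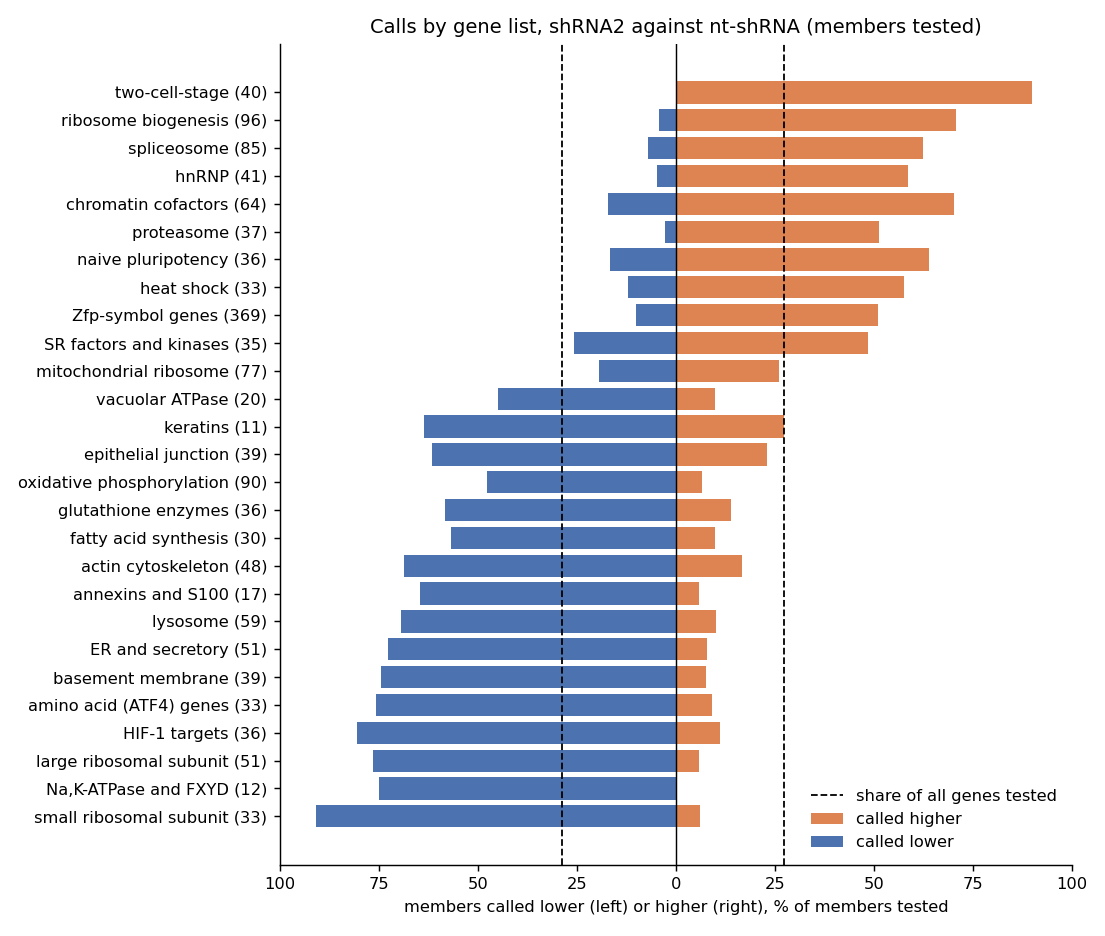
Percent of tested members of selected gene lists called lower (bars to the left) or higher (bars to the right) with shRNA2. The number tested is in parentheses. Other lists are not drawn, several of them mixed in direction, such as DNA repair, FGF and ERK, germline and imprinted genes. Dashed lines mark the shares over all genes tested, 28.7% lower and 27.2% higher, and the 2-cell-stage list has the longest bar to the right and the small ribosomal subunit the longest to the left.

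Genes of the 2-cell stage formed the group with the largest shift upward. Of the 46 members in the table, 40 passed the filter and 32 of these reached the filter level of 0.455 CPM in both controls. 36 were called higher and 0 lower, against 27.2% and 28.7% of all genes, and 30 of them rose over 2-fold. The median log2 fold change was 1.59. A scarce member could pass the filter through the shRNA2 libraries alone, and of the 32 at the filter level in both controls 30 were higher, 24 by over 2-fold, and 0 lower, with a median of 1.68. *Gm5662*, *Gm8300* and *Gm2016*, related genes of a cluster on chromosome 12, rose 5.06-, 5.25- and 6.52-fold. *Sp110*, a nuclear body protein that is on this list and on the interferon list, stood at 0.86 and 0.66 CPM with nt-shRNA and at 6.98, 6.31 and 7.44 CPM with shRNA2, 9.04-fold higher. Named beyond the selection rule after its values were seen, *Zscan4c*, a telomere factor and the best known marker of this state, rose from 2.70 and 2.58 to 11.4, 11.4 and 13.8 CPM. The shRNA2 libraries lay above both controls in 35 of the 40 members, against 35.4% of all genes.

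Levels stayed low, and the copies of these families are hard to tell apart. The summed level of the 2-cell-stage list was 221 and 192 CPM in the controls and 527, 529 and 556 CPM with shRNA2. Many members are near-identical copies, and fragments with several alignments were left out of the counts, so values of single copies are uncertain. In the direct contrast of the hairpins, 18 of the 40 members were lower with shRNA2 than with shRNA1 and 7 higher, with a median log2 difference of -0.34.

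**Figure D3:**
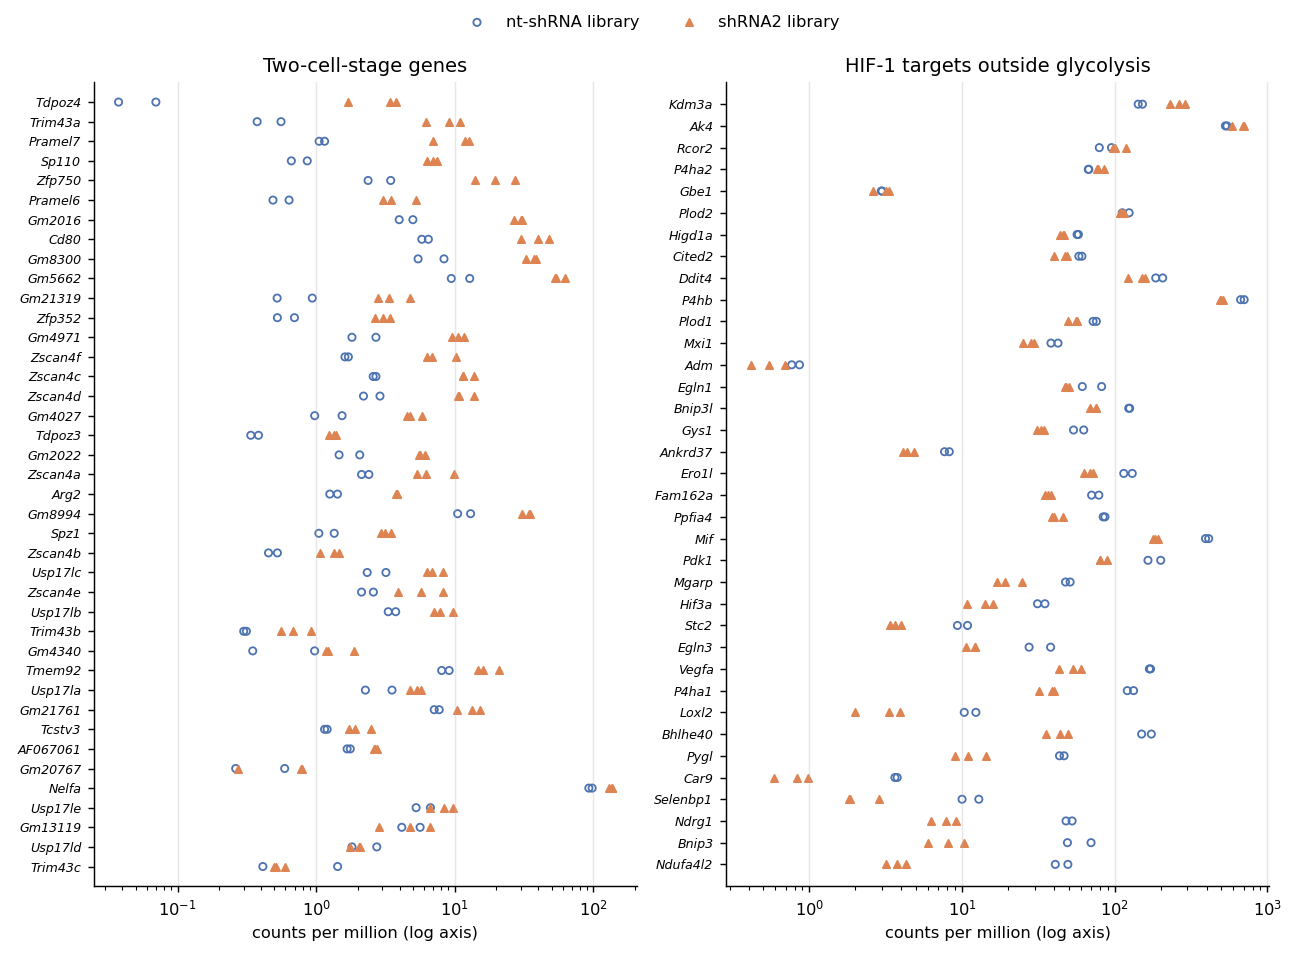
Level of each tested member of the 2-cell-stage list and of the HIF-1 target list, in CPM on a log axis, with open circles for nt-shRNA libraries and triangles for shRNA2 libraries, sorted by log2 fold change. 36 of 40 members on the left were called higher, and 29 of 36 on the right were called lower.

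The naive pluripotency list moved upward as a whole but not uniformly. 23 of 36 members were higher and 6 lower, with a median log2 fold change of 0.37. *Tex19.1*, *Klf4* and *Tet2* led the higher members. *Tcl1*, a coactivator of the kinase AKT, stood at 132 and 148 against 57.8, 54.6 and 68.5 CPM, and *Dppa5a*, an RNA-binding protein of stem cells, at 2512 and 2395 against 1263, 1068 and 1442 CPM. *Utf1*, a chromatin factor, was 1.82-fold lower. Of the formative and primed list, 6 of 21 members were higher and 6 lower, shares near those of all genes, *Foxd3* and *Dnmt3b* being 3.35- and 2.39-fold higher and *Lefty1*, *Lefty2* and *Dnmt3l* lower. Of 31 germ-layer and extraembryonic markers, 5 were higher and 11 lower, 16.1% and 35.5%, against 27.2% and 28.7% of all genes. The median log2 fold change was -0.21, with -0.14 without nt-shRNA replicate 1 and -0.21 without nt-shRNA replicate 2. *Krt7*, *Krt19* and *Nes* led the lower ones, while *Neurod1*, *Tlx2* and *Tubb3* were higher.

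HIF-1 is a transcription factor that oxygen-dependent hydroxylases keep unstable in well-oxygenated cells, and its targets serve glycolysis, mitophagy, collagen modification and vessel growth. Of 36 targets outside glycolysis, 29 were called lower, 18 of them by over 2-fold, and 4 higher (2 without nt-shRNA replicate 1), with a median log2 fold change of -0.94. *P4ha1*, a collagen prolyl hydroxylase, stood at 121 and 133 CPM with nt-shRNA and at 38.7, 32.0 and 40.2 CPM with shRNA2. *Ndrg1*, a stress-induced gene linked to differentiation, stood at 48.0 and 52.6 against 9.07, 6.22 and 7.89 CPM. *Bhlhe40*, a repressor of the circadian clock, stood at 150 and 174 against 43.8, 35.8 and 49.8 CPM. The groups were separate in all of them. Led by p-value, the members against the trend were *Kdm3a*, a histone demethylase, at 1.77-fold, *Ak4* at 1.23-fold and *P4ha2* at 1.18-fold. In the direct contrast of the hairpins 28 members were lower and 2 higher with shRNA2.

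The promoters of these targets hold the core of the hypoxia response element more often than others do. The letters ACGTG, on either strand, occur in 22 of 39 RefSeq promoters (GRCm38.p6, windows of 300 bases across the start) of the 29 list genes that could be matched, 56.4%, against 24.5% of promoters of tested genes and 19.6% of all promoters. The list was drawn up from known targets of the factor, so this share is no independent result. The element overlaps the E-box CACGTG, which 12.8% of the list's promoters and 9.69% of those of tested genes hold. Over all genes lowered over 2-fold the share with ACGTG was 22.3%, and over those raised over 2-fold 19.4%. The windows below show, for the 4 list genes with the smallest p-values that hold the motif before the start (*Bnip3*, *Pygl* and *Vegfa* were added to the named genes after their values were seen), the copy nearest the start in the direction of the gene, with the motif or its reverse complement in capitals.
P4ha1: tgacagagcgCACGTagcgagggct
Bnip3: cacgcgccgcACGTGccacacgctc
Pygl: tttgcgcactACGTGacctggacgt
Vegfa: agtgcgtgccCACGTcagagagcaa
The windows lie at chr10:59323270-59323294 on the plus strand (*P4ha1*) and, on the minus strand, at chr7:138909599-138909623 (*Bnip3*), chr12:70227800-70227824 (*Pygl*) and chr17:46025360-46025384 (*Vegfa*). *Bnip3*, a mitophagy receptor, stood at 49.1 and 70.0 CPM with nt-shRNA and at 8.05, 5.998 and 10.3 CPM with shRNA2. *Vegfa*, the growth factor of vessels, stood at 169 and 172 against 53.5, 43.3 and 59.8 CPM, and *Pygl*, a glycogen phosphorylase, at 43.5 and 46.6 against 11.02, 9.06 and 14.3 CPM. A match is a description of the sequence and no evidence of binding. The other motif searched outside those of the lists below, TGACGTCA, was found in 2.56% of the list's promoters and 2.83% of those of tested genes.

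A list of amino acid synthesis and import genes, with other genes such as *Nupr1*, *Gpx4* and *Sesn2*, was also mostly lower. Many of its members are targets of the stress factor ATF4. 25 of 33 were called lower, 8 by over 2-fold, and 3 higher, with a median log2 fold change of -0.70. *Pycr1*, which makes proline, stood at 67.2 and 62.0 CPM with nt-shRNA and at 18.7, 19.5 and 19.7 CPM with shRNA2, 3.34-fold lower. *Nupr1*, a stress-induced cofactor, stood at 81.6 and 66.0 against 23.1, 24.4 and 23.4 CPM. *Gpx4*, the peroxidase that guards lipids, was 2.03-fold lower. The higher members were *Slc38a2* (1.31-fold) and *Slc7a3* (1.39-fold), both amino acid carriers, and *Sesn2*, which is also a p53 target. *Slc7a3* stood at 25.8 and 25.99 against 30.1, 50.5 and 27.3 CPM, and without shRNA2 replicate 2 its log2 fold change was 0.15 and no longer called (edgeR adjusted p = 0.2, and between 0.052 and 0.2 over the alternatives that lost the call).

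The ATF4 element TGATGNAA, on either strand, occurs in 10 of 34 promoters, 29.4%, of the 27 matched genes of the amino acid list. Among promoters of tested genes the share was 2.28%. This list too was drawn up with known targets of the factor. The windows show the copy nearest the start, with the element or its reverse complement in capitals, for the 4 genes with the smallest p-values among those that hold it (*Pck2* and *Got1* were added after their values were seen).
Pycr1: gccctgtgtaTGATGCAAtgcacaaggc
Nupr1: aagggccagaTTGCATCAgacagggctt
Pck2: gccttcaaagTTACATCAgtatcttaca
Got1: attgcattggTTGCATCAtacaagcctc
They lie at chr11:120643834-120643861, chr7:126625563-126625590 and chr19:43524690-43524717 on the minus strand (*Pycr1*, *Nupr1* and *Got1*) and at chr14:55540153-55540180 on the plus strand (*Pck2*). *Pck2*, the mitochondrial carboxykinase, was 2.73-fold lower and *Got1*, the cytosolic aspartate transaminase, 1.75-fold. Added likewise, *Asns*, asparagine synthetase, also holds the element and did not pass the test, at 775 and 726 against 879, 847 and 746 CPM (adjusted p = 0.11).

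Fatty acid and glutathione enzymes moved mostly downward. 17 of 30 genes of fatty acid synthesis and desaturation were lower, 11 by over 2-fold, and 3 higher, with a median of -0.56. *Fads2* and *Fads1*, the front-end desaturases, were 2.50- and 2.34-fold lower, and *Scd1*, which makes monounsaturated fatty acids, stood at 392 and 402 against 110, 101.3 and 145 CPM. Its relative *Scd3* was 2.93-fold higher, at 6.67 and 5.75 against 17.3, 17.7 and 19.7 CPM. Of 36 glutathione genes, 21 were lower, 15 by over 2-fold, and 5 higher, with a median of -0.42. *Gstm3* and *Gstm1* were 8.82- and 3.16-fold lower, while *Gsto1* was 3.41-fold higher and *Gclm*, a subunit of the enzyme that starts glutathione synthesis, 1.35-fold. Glutathione transferases include close copies, whose single values are uncertain.

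Lysosomal and secretory genes were mostly lower. Of 59 genes for lysosomal hydrolases and membrane proteins, 41 were lower and 6 higher, with a median log2 fold change of -0.53. *Cd68*, a lysosomal membrane glycoprotein, was 3.05-fold lower, and *Npc2*, a cholesterol carrier of the lysosome lumen, stood at 344 and 334 CPM with nt-shRNA and at 192, 192 and 198 CPM with shRNA2. The protease gene *Ctsf* was 2.16-fold higher. Among 20 subunits of the vacuolar ATPase, 9 were lower and 2 higher (0 higher without nt-shRNA replicate 2), with *Atp6v0a4* at 3.28-fold lower. The endoplasmic reticulum and early secretory list had 37 of 51 lower and 4 higher (1 higher without nt-shRNA replicate 2), with a median of -0.44, led by the calcium-binding *Rcn3* (4.97-fold) and the coatomer subunit *Copz2* (7.59-fold).

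Most genes of the sodium-potassium pump were lower. Of 12 tested genes for its α and β subunits and the FXYD modulators, 9 were lower and 0 higher, 7 of them by over 2-fold, with a median of -1.25. *Fxyd2* stood at 20.4 and 17.4 against 3.58, 3.29 and 4.59 CPM. The summed level of the list was 2017 and 2000 CPM in the controls and 1064, 968 and 1173 CPM with shRNA2.

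Surface, matrix and cytoskeletal genes shared this direction. Of 39 basement membrane and matrix genes, 29 were lower and 3 higher (median -0.82). *Podxl* stood at 70.7 and 68.0 CPM with nt-shRNA and at 13.5, 12.3 and 16.9 CPM with shRNA2, and the higher members were *Vcan*, *Gpc4* and *Lama1* at 2.67-, 2.05- and 1.28-fold. Of 39 junction and epithelial surface genes, 24 were lower and 9 higher (median -0.37). *Epcam*, an adhesion molecule of epithelia and stem cells, stood at 195 and 203 against 90.5, 88.7 and 105 CPM, and *Crb3* and *Prss8* were 2.96- and 4.15-fold lower. Of 48 actin-binding and contractile genes, 33 were lower and 8 higher (median -0.42), with *Tnnt1*, *Myh7b* and *Csrp2* at 4.84-, 3.997- and 2.39-fold lower and *Actb* at 1.25-fold higher. Of 17 annexins and S100 proteins, 11 were lower and *Anxa8*, at 2.64-fold, was higher.

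Keratins, the intermediate filaments of epithelia, divided by gene. 7 of 11 were lower and 3 higher, with a median of -1.29. Without nt-shRNA replicate 1, 7 of 13 were lower and 1 higher with a median of -0.80, and without nt-shRNA replicate 2 the counts were the same and the median was -0.31. *Krt7* stood at 27.5 and 31.0 CPM with nt-shRNA and at 4.88, 3.74 and 6.01 CPM with shRNA2, *Krt19* at 60.6 and 67.8 against 15.3, 12.4 and 10.1 CPM, and *Krt17* at 31.6 and 25.7 against 7.21, 4.46 and 6.75 CPM. The higher keratins, *Krt42*, *Krt13* and *Krt10*, stood near or under 16.4 CPM in every library. Both *Krt13* and *Krt10* lost the call under DESeq2 and without the filter.

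The lists for RNA processing shifted upward by modest amounts. Of 85 core proteins of the spliceosome, 53 were higher and 6 lower, *Eftud2* among them, with a median of 0.23. *Prpf3*, a protein of the U4/U6 particle, stood at 79.7 and 72.4 CPM with nt-shRNA and at 166, 194 and 146 CPM with shRNA2. *Cwc22* and *Smndc1*, which act in exon junction complex loading and spliceosome assembly, were 1.88- and 1.94-fold higher. Of 41 hnRNPs and related factors, 24 were higher and 2 lower (median 0.22). *Dhx9*, an RNA helicase, stood at 240 and 226 against 570, 629 and 552 CPM, and *Sfpq* and *Hnrnpd* were 1.95- and 1.88-fold higher. In the direct contrast, 49 spliceosome genes were higher and 0 lower with shRNA2 than with shRNA1, of 85.

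Splicing factors of the SR class and their kinases were mixed. 17 of 35 were higher and 9 lower, with a median of 0.12, and without nt-shRNA replicate 1 these were 16 and 4. *Son*, *Bclaf1* and *Srsf3* led the higher ones, *Srsf3* at 266 and 302 against 472, 494 and 465 CPM. *Clk3* and *Clk1*, kinases of SR proteins, were 1.93- and 1.46-fold lower, and *Tra2a* 1.44-fold. Their groups did not overlap.

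Ribosome biogenesis factors and ribosomal proteins moved in opposite directions. Of 96 biogenesis factors, 68 were higher and 4 lower (median 0.32), with *Tma16* at 47.6 and 44.4 CPM with nt-shRNA and at 103, 113 and 90.4 CPM with shRNA2 and *Gpatch4* 2.45-fold higher. *Dkc1*, the pseudouridine synthase of H/ACA particles, was 1.75-fold lower. Of 51 proteins of the large subunit, 39 were lower and 3 higher, and of 33 of the small subunit, 30 were lower and 2 higher, with medians of -0.34 and -0.35. *Rpl36* stood at 1063 and 1027 against 533, 612 and 569 CPM, and *Fau* at 786 and 759 against 434, 479 and 434 CPM. The summed level of the large subunit list was 59470 and 57520 CPM with nt-shRNA and between 43380 and 46940 CPM with shRNA2. Fold changes under 2 were the rule here, with 0 of 84 ribosomal proteins past that size in either direction. Of 77 mitochondrial ribosomal proteins, 20 were higher and 15 lower, shares no larger than those of all genes, and without nt-shRNA replicate 1 these were 11 and 8.

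Chromatin cofactors, zinc-finger genes and chaperones were mostly higher. 45 of 64 chromatin genes were higher and 11 lower (median 0.28), with the Mediator subunit *Med1* 1.96-fold and the acetyltransferase *Kat6b* 1.89-fold higher and *Hdac7* and *Ezh1* 2.30- and 1.91-fold lower. Of 369 genes with a Zfp symbol, 188 were higher and 37 lower (median 0.30). *Zfp365* stood at 23.95 and 22.0 CPM with nt-shRNA and at 72.3, 77.4 and 57.2 CPM with shRNA2. Of 37 proteasome subunits, 19 were higher and only *Psmd3* lower (1.17-fold), with *Psmd6* at 1.63-fold, and without nt-shRNA replicate 2 the number higher was 11.

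Among 33 heat shock proteins and co-chaperones, 19 were higher and 4 lower, with a median of 0.19. *Hsph1*, a nucleotide exchange factor of the HSP70 system, stood at 96.2 and 93.5 CPM with nt-shRNA and at 268, 288 and 215 CPM with shRNA2. *Cryab*, a small heat shock protein, was 3.19-fold higher, and *Dnaja1*, a co-chaperone, stood at 122 and 124 against 239, 243 and 222 CPM. *Fkbp4*, a partner of HSP90, was 1.26-fold lower and *Hspb8* 1.46-fold. The letters GAANNTTC, an inverted pair of the repeats that form a heat shock element, occur in 15 of 36 promoters of the 26 list genes matched, 41.7%, against 5.78% of promoters of tested genes and 5.47% of those of genes raised over 2-fold. The list was drawn up from known heat shock genes, so this share is no independent result. The 4 members with the smallest p-values that hold it before the start are shown, with it in capitals (*Hspa1b* and *Hspd1* were added after their values were seen).
Dnaja1: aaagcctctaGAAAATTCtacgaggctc
Hspa1b: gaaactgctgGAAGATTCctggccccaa
Fkbp4: cgcttctctaGAAAGTTCtccgctcccg
Hspd1: gggccttccgGAAGGTTCtagaacggac
They lie at chr4:40722334-40722361 on the plus strand (*Dnaja1*) and, on the minus strand, at chr17:34959325-34959352 (*Hspa1b*), chr6:128438790-128438817 (*Fkbp4*) and chr1:55088054-55088081 (*Hspd1*). *Hspa1b*, an inducible HSP70, was 1.82-fold higher and *Hspd1*, the mitochondrial chaperonin, 1.34-fold, so that carriers of these letters were found in both directions.

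The shares called varied between annotated classes. Of 560 lincRNA genes, 34.8% were higher and 16.4% lower, against 27.2% and 28.7% of all genes, with a median log2 fold change of 0.28. For 14372 protein-coding genes the shares were 27.7% and 31.7% and the median was -0.02. Unprocessed pseudogenes had 36.4% higher and 10.4% lower of 77, and genes of the TEC class, transcripts still to be checked experimentally, 26.6% and 10.8% of 425. The median log2 fold change of TEC genes was 0.36, with 0.42 without nt-shRNA replicate 1 and 0.37 without nt-shRNA replicate 2. Processed pseudogenes had 20.1% higher and 16.02% lower of 768, antisense genes 22.1% and 12.2% of 533, and genes of the bidirectional promoter class 15.2% and 16.7% of 66. Noncoding classes are scarce, with a median control level of 0.79 CPM for lincRNA genes against 24.6 CPM for protein-coding genes, and the part of level in these shares was not tested.

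Single noncoding genes changed by large folds. *Gm11290*, a lincRNA, stood at 1.80 and 1.53 CPM with nt-shRNA and at 12.8, 17.1 and 13.2 CPM with shRNA2, 8.61-fold higher, and *D930016D06Rik* was 2.74-fold higher. *Platr10*, a lincRNA of the pluripotent state, stood at 91.1 and 101.4 against 37.3, 42.7 and 44.4 CPM. *Neat1*, the scaffold of paraspeckles, was 1.91-fold higher, *Malat1*, its neighbour in the genome and an RNA of nuclear speckles, 1.40-fold lower, and *Meg3*, an imprinted RNA, 1.75-fold lower. *5430402O13Rik* and *2310043M15Rik*, annotated as antisense, were 11.1- and 3.44-fold higher, and counts without strand cannot tell an antisense gene from its partner. *Btnl7-ps*, a pseudogene, stood at 28.4 and 28.7 against 6.46, 4.92 and 6.38 CPM.

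**Figure D4:**
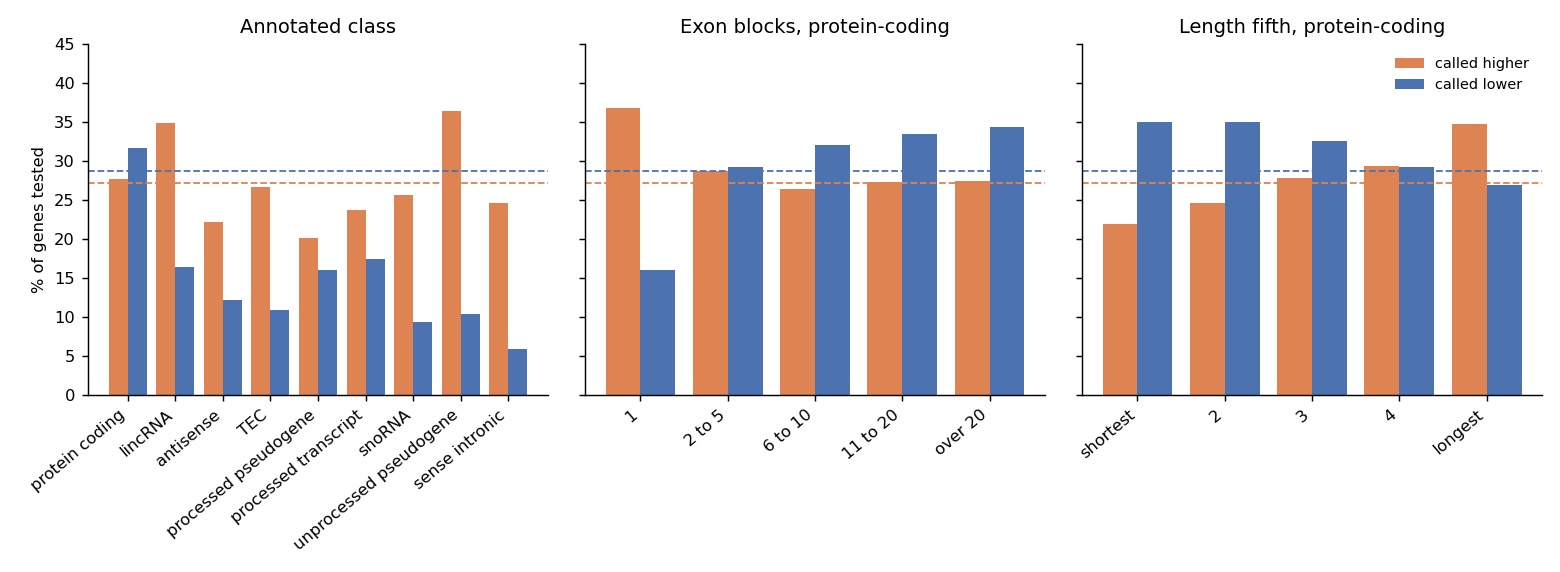
Share of genes tested that were called higher (orange) or lower (blue) with shRNA2, in percent, by annotated class, by number of merged exon blocks and by class of exonic length, the last 2 for protein-coding genes. Dashed lines give the shares over all genes tested, 27.2% higher and 28.7% lower, and the share called higher runs from 21.9% in the shortest length class to 34.7% in the longest.

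Gene structure went with the direction of change among protein-coding genes. Those with a single exon block were higher in 36.8% and lower in 16.02% of 437 cases, with a median of 0.24, whereas those with over 20 blocks were higher in 27.4% and lower in 34.3% of 2233. Classes between these had 26.4% to 28.7% higher. Exonic length ran the other way. In the shortest of 5 equal classes, up to 2398 bases, 21.9% were higher and 35.0% lower, and in the longest, above 7485 bases, 34.7% and 26.9%. Median control levels differed between classes as well, at 2.86 CPM for a single block and 44.0 CPM for over 20, and at 9.68 and 41.7 CPM for the shortest and longest classes, and the part of level in the trends was not tested.

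**Figure D5:**
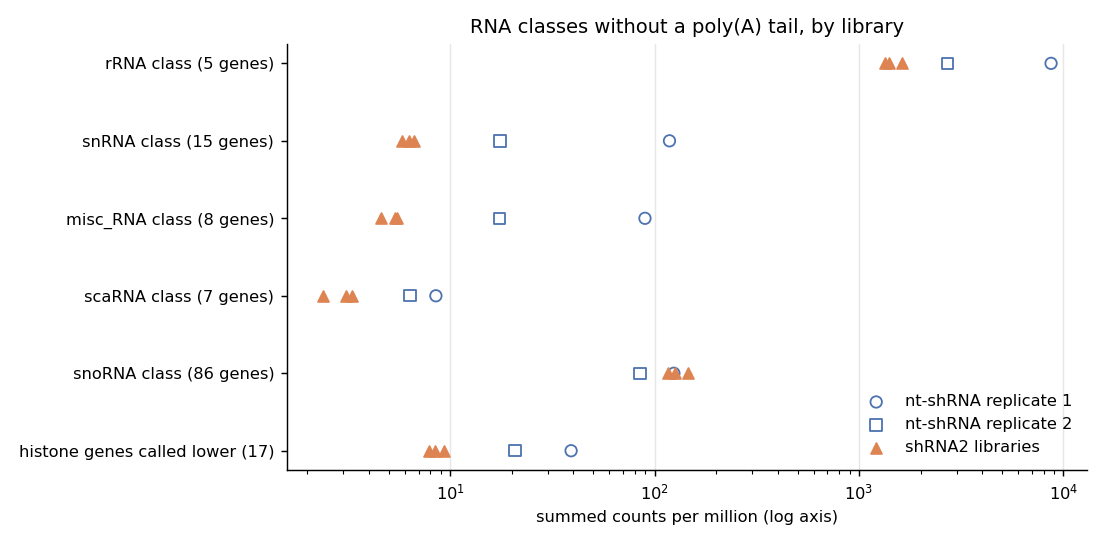
Summed level of RNA classes that carry no poly(A) tail, in CPM on a log axis, with a circle for nt-shRNA replicate 1, a square for nt-shRNA replicate 2 and triangles for the 3 shRNA2 libraries. For rRNA, snRNA, misc_RNA and scaRNA genes, nt-shRNA replicate 1 is highest, nt-shRNA replicate 2 second and the shRNA2 libraries lowest. The 17 histone genes shown keep this order, but they were chosen by their lower call, which places the shRNA2 libraries lowest. The sums of all 31 histone genes tested overlapped between the groups.

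Some small structural RNAs were among the genes with the lowest folds. *Rn7sk*, the 7SK RNA that holds the elongation factor P-TEFb, stood at 77.2 and 13.03 CPM with nt-shRNA and at 1.72, 2.62 and 2.11 CPM with shRNA2 (log2 fold change -4.38 ± 0.48, adjusted p = 3.5e-07). Without nt-shRNA replicate 1 its log2 fold change was -2.60. *Gm22513*, an snRNA gene, stood at 52.4 and 5.51 against 0.65, 0.68 and 0.23 CPM, with -5.78 in the full fit and -3.40 without that library. *n-R5-8s1*, a 5.8S rRNA gene, stood at 31.7 and 3.80 against 0.33, 0.05 and 0.23 CPM, with -6.44 and -4.22. Of 15 snRNA genes 7 were lower and 1 higher, and without nt-shRNA replicate 1 these were 6 and 1. Of 5 rRNA genes 2 were lower and 1 higher, with and without that library. Of 8 misc_RNA genes 4 were lower and 2 higher, or 4 and 0 without that library, and of 7 scaRNA genes 4 were lower, or 3 without that library. None of *Rn7sk*, *n-R5-8s1*, *Gm22513* and the other 4 snRNA genes among the lowest folds passed the direct contrast of the hairpins. Genes annotated as miRNA summed to 1796 and 549.6 CPM in the controls and to between 318 and 349 CPM with shRNA2, but 7 of 25 were higher and 6 lower, or 4 and 5 of 24 without nt-shRNA replicate 1. The snoRNA class did not share this order, with sums of 124 and 84.9 CPM in the controls and between 116 and 145.5 CPM with shRNA2. Of 86 snoRNA genes 22 were higher and 8 lower, 25.6% and 9.3%, against 27.2% and 28.7% of all genes. The share higher was thus no larger than over all genes. The median log2 fold change was 0.38, with 0.62 without nt-shRNA replicate 1 and 0.24 without nt-shRNA replicate 2. Poly(A) selection removes most RNA of these classes, and differences in selection and in the cells cannot be told apart here.

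The histone list holds the replication-dependent clusters, whose messages end in a stem-loop in place of a poly(A) tail, and *H1f0*, whose message is polyadenylated. Its members were called mostly lower but are scarce here. Only 31 of 68 histone genes on the list passed the filter. A scarce member could pass through the controls alone, and reaching the filter level in both controls, as 24 did, does not guard against that. Of the 31, 17 were lower, all by over 2-fold, and 3 higher, with a median of -1.21. With at least 10 counts asked for in every library, 3 were lower. All 31 summed to 90.9 and 61.8 CPM in the controls and to 71.8, 81.9 and 71.7 CPM with shRNA2, so that the groups overlapped. These sums include *H1f0*, at 26.3 and 24.9 against 40.1, 47.8 and 40.3 CPM, so they do not describe messages without a tail alone. The 17 called lower, chosen by that call, summed to 39.0 and 20.8 CPM in the controls and to 7.86, 8.43 and 9.32 CPM with shRNA2. *Hist1h4d* stood at 3.75 and 2.30 against 0.60, 0.27 and 0.55 CPM, and *Hist1h3e* at 5.25 and 1.92 against 0.56, 0.59 and 0.41 CPM. Without nt-shRNA replicate 1, 10 of 30 histone genes were lower (median -0.79), and without nt-shRNA replicate 2, 26 of 40 (median -1.50). The higher members were *H1f0*, whose message is polyadenylated, at 26.3 and 24.9 against 40.1, 47.8 and 40.3 CPM, *Hist1h2bc* at 2.16-fold and *Hist1h4i*, whose groups overlapped. The part of residual non-polyadenylated RNA in the histone result was not tested.

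Messages of the mitochondrial genome were mixed. Of 7 mitochondrial protein genes tested, 3 were higher and 2 lower, or 3 and 0 without nt-shRNA replicate 2. *mt-Cytb*, cytochrome b, stood at 584 and 688 CPM with nt-shRNA and at 1682, 1596 and 1360 CPM with shRNA2, 2.43-fold higher, and *mt-Nd1* was 1.63-fold higher. *mt-Nd6* and *mt-Nd5* were 1.18- and 1.15-fold lower, and both lost the call under scaling by library size alone. Of 90 nuclear genes for oxidative phosphorylation, 43 were lower and 6 higher (median -0.16), with *Cox7a1* and *Ndufv3* at 2.92- and 1.89-fold lower beside *Ndufa4l2*.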

How the data were processed

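RNA from R1 mESCs was prepared with trizol, selected for poly(A), made into libraries with a NEBNext Ultra II kit and sequenced as paired-end reads on a NextSeq500. The authors aligned the reads with STAR (version not given in the sources used here) to mm10 and deposited raw counts per gene, made by featureCounts 1.6.2 with the exons of GENCODE M24. The counting step took no account of strand and used only fragments assigned to a single place and gene, so close copies and antisense partners are poorly resolved. Of 55385 gene identifiers, 55144 were matched to symbols and classes of GENCODE M21. Total counts ran from 19569525 to 29871048 per library, and TMM factors from 0.935 to 1.036. At such depths 3 counts correspond to between 0.1045 and 0.1481 CPM.

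Genes were kept by filterByExpr (minimum count 10), and counts of all 8 libraries were fitted by group with edgeR 4.0.16 in R 4.3.3 (quasi-likelihood test, two-sided, TMM, Benjamini-Hochberg over all 17445 genes, called under 0.05). All adjusted p-values in the text come from this fit unless another tool is named. The study itself tested with DESeq2, which was run here as an alternative (version 1.42.0), beside other scalings, filters, a replicate block and leaving out each library. The labels call the replicates biological. On simulated counts for this contrast (17073 genes tested), the fit recovered 84.8% of 99 genes changed 2-fold and 98% of 99 changed 4-fold, with 2.69% false calls. The simulation changed few genes and held no control library that stands apart, whereas 55.9% of genes were called in the data. How far these rates carry over to the data was not tested. Fold changes are edgeR's, and levels are CPM. Each SE was derived from the test, as the absolute log2 fold change divided by the square root of its quasi-likelihood F.

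Named genes were the 15 in each direction with the smallest p among those over 2-fold, the 10 with the largest fold (at least 1 CPM in the higher group and 1 count in every library of both groups), in each list and each noncoding class of 20 or more genes up to 3 per direction by p, and *Eftud2*, without genes of the glycolysis, sterol and p53 lists. 1 gene that met this rule is not reported here. The members and gene lists were chosen with earlier results of these data known. The comparison with shRNA1 was used only where stated.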

Additional observations from a re-analysis of the deposited data

How the results depend on the processing

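None of the 305 named genes reversed in direction under any alternative that tested them. Nearly all were chosen by p or fold in the main fit, and the alternatives reuse most of its libraries. A reversal was therefore unlikely beforehand. With at least 10 counts in every library, 274 of them were tested. The balance of calls over all genes did turn, to 5850 higher and 4077 lower under scaling by library size alone and to 4501 and 4420 with at least 10 counts in every library. That of DNA repair genes turned from 20 higher and 19 lower to 14 and 16 without nt-shRNA replicate 1, and that of FGF and ERK genes from 13 and 12 to 9 and 11 without nt-shRNA replicate 2. DESeq2 called 4220 genes higher and 4517 lower, against 4748 and 5010. Leaving out each library in turn gave 3610 to 4882 higher and 4109 to 5135 lower. Asking for at least 10 counts in every library left 759 genes higher over 2-fold (1320 before) and 3 histone genes lower (17 before), since that filter drops genes that are scarce in any library. With 1 library left out, the number of lower histone genes was between 10 (without nt-shRNA replicate 1) and 26 (without nt-shRNA replicate 2), that of higher mitochondrial ribosomal proteins between 11 (without nt-shRNA replicate 1) and 22, and that of higher proteasome genes between 11 (without nt-shRNA replicate 2) and 19. Without nt-shRNA replicate 1 the lower spliceosome genes went from 6 to 3, the lower imprinted genes from 9 to 5, the lower ribosome biogenesis genes from 4 to 2, the lower proteasome genes from 1 to 0, the lower 2-cell-stage genes from 0 to 1 and the higher lysosomal genes from 6 to 3, and without nt-shRNA replicate 2 the higher lysosomal genes were 2, the higher actin genes 4 (8 before), the higher small-subunit proteins 1 (2 before) and the lower DNA repair genes 11 (19 before). The cause of these shifts was not tested. Of the 305 named genes, 5 lost the call under DESeq2 (*Gm11611*, *Slc7a3*, *Hist1h4i*, *Krt13* and *Krt10*), 4 under scaling by library size alone (*Psmd3*, *mt-Nd6*, *Rrp9* and *mt-Nd5*), and up to 18 with 1 library left out, the most without nt-shRNA replicate 2. Without TMM the median over all genes shifted by 0.089 on the log2 scale. With only 2 control libraries, of which 1 stands apart in non-polyadenylated RNA, small changes rest on few values.

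A fit with a replicate block gave 4898 higher and 5136 lower calls, and 1 named gene, *Krt13*, lost its call. The numbers did not pair the libraries: same-numbered libraries deviated from their group means with correlations of 0.0106 and 0.00268 across genes.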

Other observations

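Gene groups not described above were mixed in direction. Of 32 genes of FGF and ERK signalling, 13 were higher and 12 lower, with a median log2 fold change of 0.05. *Spry2*, a feedback inhibitor of receptor kinases, stood at 34.6 and 35.3 CPM with nt-shRNA and at 94.2, 95.8 and 81.7 CPM with shRNA2, and *Dusp4*, a MAP kinase phosphatase, at 14.2 and 14.1 against 4.65, 4.56 and 3.53 CPM. *Mras* was 2.46-fold higher and *Rras*, a relative in the Ras family, 3.68-fold lower. Of 38 germline genes, 18 were higher and 13 lower, *Tex15* at 2.92-fold higher and *Dmrt1*, *Patl2* and *Tdrd12* at 3.16-, 3.42- and 2.22-fold lower.

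Of 30 interferon and immune genes, 16 were lower and 9 higher, with a median of -0.39. *Mov10*, an RNA helicase that restrains retrotransposons, stood at 219 and 235 CPM with nt-shRNA and at 64.8, 56.2 and 84.8 CPM with shRNA2. *Ifi30*, a lysosomal thiol reductase, and *Aim2*, a sensor of cytosolic DNA, were 3.15- and 2.06-fold lower, while *Sp110*, also on the 2-cell-stage list, and *H2-M5* were 9.04- and 2.31-fold higher. Of 47 genes of DNA repair, 20 were higher and 19 lower. *Brca2*, which acts in homologous recombination, stood at 91.4 and 104 against 213, 209 and 226 CPM, and *Primpol*, a primase that restarts stalled forks, was 1.92-fold lower.

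Imprinted genes and noncoding host genes also divided. 12 of 28 imprinted genes were higher and 9 lower. *Peg3* and *Sgce*, both expressed from the paternal allele, were 1.78- and 1.64-fold lower, while *Mest*, also paternally expressed, was 1.64-fold higher. Of 18 host genes of snoRNAs, 7 were higher and 3 lower, *Dancr* at 8.32 and 7.67 against 16.8, 20.3 and 14.1 CPM. *Tug1*, a long noncoding RNA, stood at 42.7 and 53.1 against 95.8, 106 and 85.9 CPM.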
